A study of Caenorhabditis elegans with 40 samples.

Results

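Transcript levels of whole L3 *C. elegans* larvae, all grown on 1 mM auxin, were compared by RNA-seq between a strain that expresses the plant auxin receptor TIR1 and a strain that does not, with no degron-tagged protein in either. The members were chosen by strain, treatment and batch as the sample labels give them, and are 6 of the 40 samples of the series, 3 per strain, all from batch 3. The 3 TIR1 samples are strain PMW823, which carries the insertions ubsSi20 on chromosome II and xeSi376 on chromosome III. The 3 TEV control samples are strain PMW366, which carries no insertion other than ubsSi20. The study's strain list also gives PMW366 a mutation of *unc-119*, taken up further on. In ubsSi20, which both strains share, the heat shock promoter of *hsp-16.2* drives the TEV protease, followed by the 3′ end of *unc-54*. In xeSi376, the promoter of *eft-3* (called *eef-1A.1* in the annotation used here), which is active in most tissues, drives TIR1 fused to the fluorescent protein mRuby, with the same 3′ end. Both insertions are marked by *Cbr-unc-119*, the copy of *unc-119* from *C. briggsae*. All 6 samples were heat-shocked: synchronized L1 animals spent 3 h at 22 °C, 30 min at 34 °C to make the protease and a further 19 h at 22 °C. Neither strain has a TEV cleavage site or a degron, so the comparison asks what the TIR1 strain alone changes under auxin. The comparison holds 1 line with TIR1 and 1 without, so TIR1 and any other difference between the genomes of both lines cannot be told apart. The treatment label of all 6 samples reads 1 mM auxin, while the shared protocol also describes auxin controls kept on ethanol without auxin.

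TIR1 is an F-box protein of plants. In animal cells with auxin it can join the host's SKP1 and cullin proteins into an SCF ubiquitin ligase, which marks proteins that carry an auxin-inducible degron for the proteasome, so strains with TIR1 and without a degron serve as controls for depletion experiments. Worm larvae moult between stages: the epidermis makes a new collagen cuticle, and cuticle collagens, hedgehog-related proteins and astacin proteases are made in pulses that recur with each larval stage. Heat shock genes encode chaperones that bind unfolded proteins.

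The deposited estimated read counts were summed to 19934 genes. The 3 TIR1 samples held 88420315, 30458797 and 23626527 reads on genes, and the 3 TEV control samples 33591625, 24320598 and 31660243. TIR1 replicate 1 had 4 count files instead of 2, and these were counted as 1 sample. Chi-square per degree of freedom was 1.248 and 1.324 within the 2 pairs of files, and 2.095 to 2.157 between files of different pairs. Between TIR1 samples it was 30.7 to 122. The measure grows with depth, which differed between files and samples. Nothing in the labels says whether the 3 samples of a strain came from separate cultures, so the p-values measure the spread between these samples, which may be technical. TIR1, the TEV protease and mRuby were not measured, because 0 transcripts of these names were in the deposited estimates. The first principal component of the 6 samples held 75.3% of the variance and separated the strains, with TIR1 samples between -66.8 and -28.9 and TEV control samples between 39.9 and 59.2. TIR1 replicate 1 was the TIR1 sample nearest to the TEV controls. Markers of other tissues were checked for a mix of stages or tissues. Of 31 major sperm protein genes, 0 reached the level needed for a test, and their highest level was 0.16 CPM (read counts relative to a library size scaled by the TMM method) in TIR1 animals and 0.148 CPM in TEV controls. Of the defining markers of germline, muscle, intestine, neurons and pharynx, 3 each, none passed the test. Among 3 epidermal markers, *dpy-7*, a cuticle collagen, was lower in TIR1 animals (229, 151 and 116 CPM, against 383, 448 and 300 CPM in TEV controls; the call was lost without TIR1 replicate 2 or TEV control replicate 2, with an adjusted p of up to 0.0754). The other epidermal markers did not pass the test: *lin-26* had a log2 fold change of -0.51 (adjusted p = 0.063) and *elt-1* one of 0.26 (adjusted p = 0.30).

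More genes were downregulated than upregulated in TIR1 animals. Of 13847 genes with at least 10 reads in 3 of the 6 samples, 648 were higher (4.68%) and 1351 lower (9.76%) at an adjusted p under 0.05 in the quasi-likelihood test of edgeR after Benjamini-Hochberg adjustment, the source of every adjusted p given here. Beyond 0.5 on the log2 scale, 563 genes were higher (4.07%) and 1281 lower (9.25%). The downregulated genes changed more: their median log2 fold change was -1.58, against 0.82 for the upregulated genes and 0.04 for all genes. Of the called genes, 553 had a log2 fold change of -2 or less and 50 of 2 or more. The number of calls depended on single libraries. It fell to 313 higher and 984 lower without TIR1 replicate 2, to 395 and 1128 without TIR1 replicate 3, and to 317 and 898 without TEV control replicate 2.

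**Figure D1:**
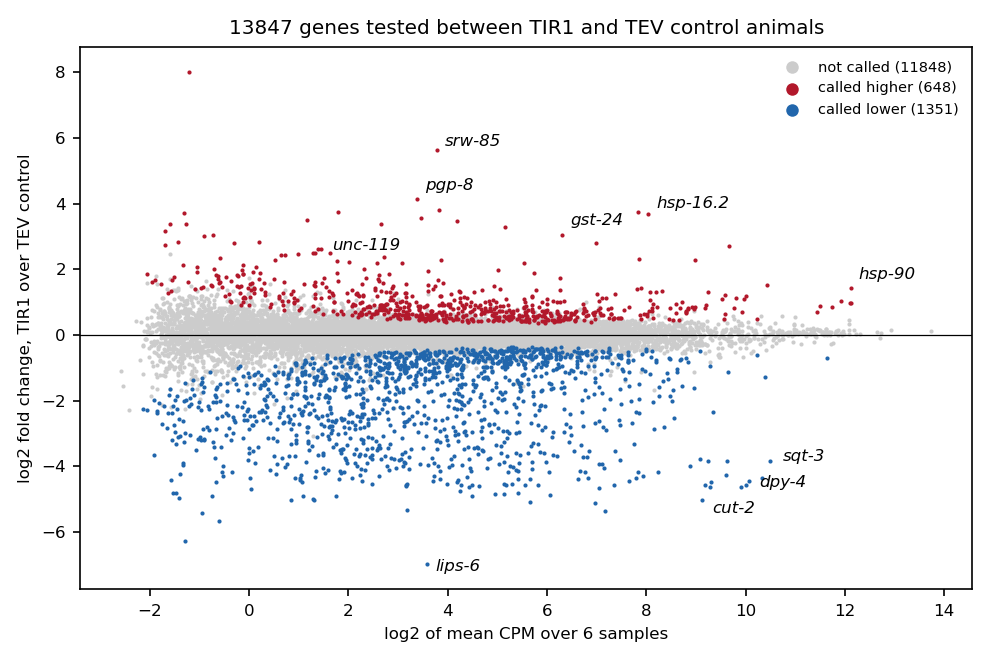
Log2 fold change of TIR1 over TEV control animals (vertical) against the log2 of the mean CPM over the 6 samples (horizontal) for each of the 13847 genes tested. Red points are the 648 genes called higher and blue points the 1351 called lower at an adjusted p under 0.05, and the blue points reach farther from 0 than most red points; the red point near 8 is a gene with no reads in the TEV controls, whose fitted value is no measured fold.

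The genes that name the parts of the transgenes were taken first. *unc-119* (WBGene00006843, WBcel235 chromosome III, 10902641 to 10908935), needed for normal movement and used as the rescue marker of both insertions, had 14.2, 14.5 and 13.3 CPM in TIR1 samples 1, 2 and 3, and 3.05, 3.07 and 3.02 CPM in TEV control samples 1, 2 and 3. The groups did not overlap, with a log2 fold change of 2.20 (SE 0.12, adjusted p = 0.000193). The study's strain list gives PMW366 with the mutation *unc-119(ed3)*, which the labels do not name, and whether PMW823 carries it is not given in the sources used here. Reads of the worm's own gene and of the inserted *C. briggsae* copies cannot be told apart here. *hsp-16.2* (chromosome V, 1804334 to 1804957), a small heat shock protein whose promoter drives the protease in both strains, had 309, 666 and 479 CPM in TIR1 samples, against 30.4, 53.3 and 30 CPM in TEV controls (log2 fold change 3.68, SE 0.35, adjusted p = 0.000563). Every TIR1 sample was above every TEV control. *eef-1A.1* (chromosome III, 6970026 to 6971712), a translation elongation factor whose promoter drives TIR1, did not pass the test, at 13630, 16180 and 13350 CPM in TIR1 samples and 12040, 14990 and 12230 CPM in TEV controls (adjusted p = 0.689). *unc-54*, the body wall muscle myosin heavy chain, had 8563, 6142 and 6072 CPM in TIR1 samples and 7951, 5973 and 5965 CPM in TEV controls, and the groups overlapped (adjusted p = 0.890).

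Several of the most upregulated genes were nearly off in the TEV controls. *srw-85* (chromosome V, 19429387 to 19431136), a predicted chemoreceptor of the srw family, had 26.1, 26.2 and 28.5 CPM in TIR1 samples and 0.503, 0.701 and 0.452 CPM in TEV controls. It was 49.6-fold higher, with a log2 fold change of 5.63 (SE 0.18, adjusted p = 8.64e-06). It had the highest fold change among upregulated genes with a mean of at least 1 CPM. *F49B2.6* (chromosome I, 14331085 to 14339839) had 22.4, 19.8 and 19.2 CPM in TIR1 samples and 1.69, 1.45 and 2.05 CPM in TEV controls, a log2 fold change of 3.55 (SE 0.16, adjusted p = 7.38e-05). Neighbouring genes of the SCP/TAPS family of secreted proteins lay within 13059584 to 13069994 on chromosome IV and rose together: *scl-3* averaged 65 ± 14.5 CPM in TIR1 animals and 6.61 ± 0.958 CPM in TEV controls (SD, n = 3 each), and the log2 fold changes were 3.29 for *scl-3*, 3.37 for *scl-5* and 3.80 for *scl-6* (adjusted p at most 0.000617). *vsra-1*, chosen after its values were seen, averaged 76.3 ± 3.29 CPM in TIR1 animals and 16.6 ± 0.535 CPM in TEV controls, with a log2 fold change of 2.20. All of these genes were also high in the other TIR1 strains of the series, with or without auxin, as described further on.

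Among the other strongly upregulated genes were *pgp-8*, *numr-1* and *gst-24*. *pgp-8* (chromosome X, 10859301 to 10864422), an ABC transporter of the P-glycoprotein family, had 17.2, 18.5 and 23.3 CPM in TIR1 samples and 1.54, 0.789 and 0.904 CPM in TEV controls (log2 fold change 4.16, SE 0.25, adjusted p = 0.000213). *numr-1* (chromosome III, 7364385 to 7365230), a nuclear protein induced by cadmium, had 17.9, 29.9 and 52.6 CPM in TIR1 samples and 2.90, 3.72 and 2.38 CPM in TEV controls (log2 fold change 3.48, SE 0.40, adjusted p = 0.000992). The TIR1 samples were widely spread, and the lowest of them was still well above the highest TEV control. *gst-24* (chromosome II, 13610443 to 13611366), a glutathione S-transferase, had 112, 152 and 160 CPM in TIR1 samples and 17.9, 13.8 and 19.4 CPM in TEV controls (log2 fold change 3.04, SE 0.19, adjusted p = 0.000213). *amt-1*, an ammonium transporter, and *W01F3.2*, both chosen after their values were seen, rose by 2.49 and 2.28 on the log2 scale (adjusted p = 0.000816 and 0.00156).

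**Figure D2:**
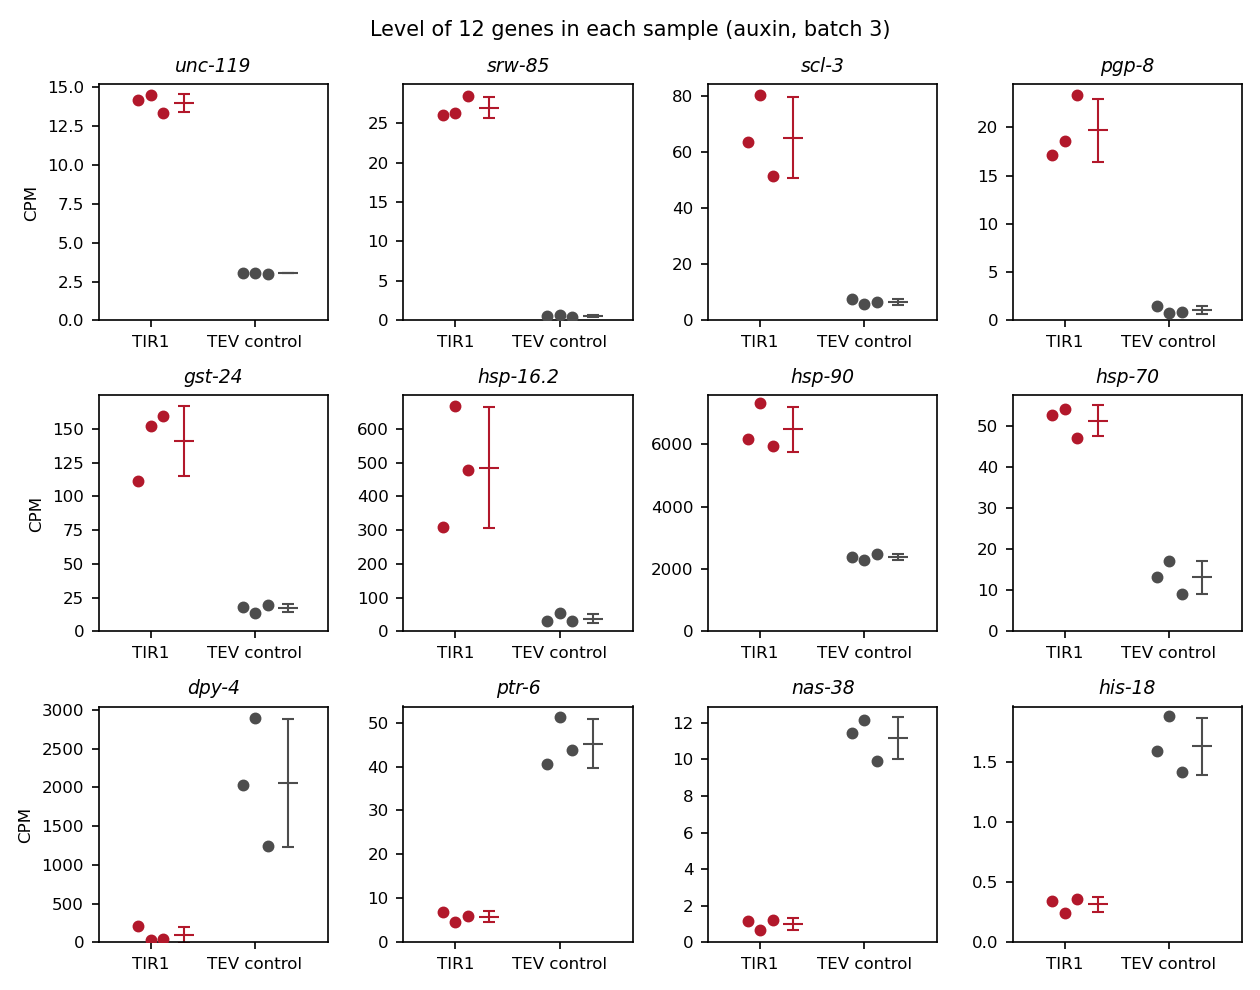
CPM of 12 genes (one panel each, linear axes starting at 0) in the 3 TIR1 samples (red) and the 3 TEV control samples (grey); the dash and bars beside the points are the mean and SD of each group. *srw-85* lies between 26.1 and 28.5 CPM in TIR1 samples and below 1 CPM in TEV controls, while *dpy-4* lies between 31.2 and 210 CPM in TIR1 samples and between 1244 and 2897 CPM in TEV controls.

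Heat shock genes were upregulated as a group, 19 h after the heat shock that both strains received. Of 17 measured members of the list, 11 were higher (64.7%, against 4.68% of all genes) and 0 lower (against 9.76%) in TIR1 animals. These counts were 12 and 0 at an unadjusted p under 0.05, and 11 and 0 by DESeq2. The median log2 fold change was 1.01, against 0.04 over all genes. The summed level of the list was 16810 to 20830 CPM in TIR1 samples and 6890 to 7988 CPM in TEV controls. The *hsp-16* genes, which encode small heat shock proteins, had the largest changes of the list. *hsp-16.41* (chromosome V, 1805178 to 1805875), which lies beside *hsp-16.2*, had 282, 587 and 400 CPM in TIR1 samples and 22.8, 48.1 and 23.4 CPM in TEV controls (log2 fold change 3.75, SE 0.39, adjusted p = 0.000749). *hsp-16.48* rose by 2.31 and the gene WBGene00002017, which shares the name *hsp-16.1* with a second copy, by 2.71 on the log2 scale. These genes are near-identical in pairs, so the division of reads between them is uncertain.

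The other 7 called members rose by less. *hsp-90* (chromosome V, 14684918 to 14688545), the HSP90 chaperone, had 6177, 7319 and 5953 CPM in TIR1 samples and 2403, 2292 and 2484 CPM in TEV controls (log2 fold change 1.44, SE 0.16, adjusted p = 0.000886). *hsp-70*, a heat-inducible HSP70, had 52.7, 54.1 and 46.9 CPM in TIR1 samples and 13.3, 17 and 9.04 CPM in TEV controls (log2 fold change 1.97, SE 0.21, adjusted p = 0.000868). Both groups of samples were well apart for these genes. *F44E5.4*, another inducible HSP70, rose by 1.52, the small heat shock protein *hsp-43* by 1.03, the HSP70 relative *hsp-110* by 0.91, the constitutive HSP70 *hsp-1* by 0.97 and the J-domain protein *dnj-13* by 0.52 on the log2 scale. The calls of *hsp-1* and *dnj-13* were lost without TEV control replicate 3 (adjusted p = 0.0643 and 0.0730), that of *hsp-1* also without TEV control replicate 2 (0.0564), and that of *dnj-13* also without TIR1 replicate 2 (0.0937) or TEV control replicate 1 (0.0570). *F44E5.5*, the near-identical neighbour of *F44E5.4*, had 352, 46.7 and 41.3 CPM in TIR1 samples and 174, 31.1 and 13.7 CPM in TEV controls, and the groups overlapped (adjusted p = 0.605). The gene of the heat shock transcription factor, *hsf-1*, had a log2 fold change of 0.12 (adjusted p = 0.584), and that of its binding protein, *hsb-1*, one of -0.20 (adjusted p = 0.492).

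The stress genes of other compartments held few called genes by edgeR, though their summed levels did not overlap between the strains. Among 11 mitochondrial stress genes, 1 was higher by edgeR (9.09%, against 4.68% of all genes) and 4 by DESeq2, which called 770 of all 13847 genes higher. None was lower by either. At an unadjusted p under 0.05, 5 were higher and 2 lower, against 1653 and 2094 of all 13847 genes. The median log2 fold change was 0.35, and the summed level was 2766 to 3154 CPM in TIR1 samples and 2034 to 2162 CPM in TEV controls. The gene called by edgeR was the mitochondrial HSP70 *hsp-6*, with 1249, 1241 and 1119 CPM in TIR1 samples and 768, 680 and 761 CPM in TEV controls (log2 fold change 0.71, SE 0.13, adjusted p = 0.00878). Of 19 genes of the endoplasmic reticulum stress response, 1 was higher, the lectin chaperone *cnx-1* (log2 fold change 0.60), and 1 lower, the protein disulfide isomerase *pdi-2* (-0.69). Each was 5.26% of the list, against 4.68% higher and 9.76% lower of all genes. The summed level of the list was 10720 to 12970 CPM in TIR1 samples and 13660 to 14860 CPM in TEV controls. Both calls were lost in at least 3 of the 6 fits without a library, with an adjusted p of up to 0.0653 for *cnx-1* (without TIR1 replicate 2, TEV control replicate 2 or TEV control replicate 3) and 0.0927 for *pdi-2* (without any library other than TIR1 replicate 1).

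Cuticle collagens were downregulated more often than upregulated. Of 117 measured members, 54 were lower (46.2%, against 9.76% of all genes) and 18 higher (15.4%, against 4.68%) in TIR1 animals. The median log2 fold change of the members was -1.03. Their summed level overlapped between the groups, at 34470 to 45210 CPM in TIR1 samples and 36050 to 48840 CPM in TEV controls. *dpy-4* (chromosome IV, 14985543 to 14986784) had 210, 31.2 and 42.9 CPM in TIR1 samples and 2034, 2897 and 1244 CPM in TEV controls (log2 fold change -4.44, SE 0.76, adjusted p = 0.00569). TIR1 replicate 1 was the highest of the TIR1 samples and still far below the lowest TEV control. The same held for *col-17* (log2 fold change -4.35), *dpy-13* (-4.57), *rol-6* (-3.99) and *sqt-3* (-3.85), collagens that shape the larval body, of which *sqt-3* (chromosome V, 12352745 to 12354320) had 400, 78.1 and 85.5 CPM in TIR1 samples and 2589, 3589 and 1957 CPM in TEV controls. The 18 collagens that were higher had smaller changes, between 0.70 and 2.73 on the log2 scale. *col-10* (chromosome V, 9164292 to 9165307) had 4219, 6265 and 5210 CPM in TIR1 samples and 2604, 2487 and 2494 CPM in TEV controls (log2 fold change 1.05, SE 0.18, adjusted p = 0.00564), and *col-140* rose by 2.45. The number of higher collagens was 10 without TEV control replicate 2 and 9 without TEV control replicate 3. Over all genes, calls higher fell from 648 to 317 and 460 in these fits.

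The downregulated genes with the largest fold changes included *cut-2*, *lips-6*, *K02E11.10* and *abu-12*. *cut-2* (chromosome V, 13414949 to 13416064), a cuticlin, had 61.8, 13 and 24.3 CPM in TIR1 samples and 868, 1582 and 811 CPM in TEV controls (log2 fold change -5.03, SE 0.61, adjusted p = 0.00122). *lips-6* (chromosome IV, 12014130 to 12015686), named for its likeness to lipases, had the lowest fold change among downregulated genes, with 0.315, 0 and 0.0399 CPM in TIR1 samples and 28.9, 33.6 and 9.56 CPM in TEV controls. Its fitted log2 fold change of -6.99 rests on few reads in TIR1 animals. *K02E11.10* fell by 5.36 and *abu-12*, a gene of a family induced by blocked unfolded protein response, by 4.83 on the log2 scale.

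Genes of the hedgehog-related families and their patched-related relatives fell together. In the worm these encode secreted proteins of the epidermis and transmembrane proteins with a sterol-sensing domain, and several are needed for moulting. Of 68 measured members, 41 were lower (60.3%, against 9.76% of all genes) and 4 higher (5.88%, near the 4.68% of all genes). The median log2 fold change was -1.54, and the summed level was 1833 to 2459 CPM in TIR1 samples and 4645 to 5806 CPM in TEV controls. *ptr-6* (chromosome II, 5242442 to 5246837), a patched-related gene, had 6.94, 4.57 and 6.11 CPM in TIR1 samples and 40.6, 51.3 and 43.7 CPM in TEV controls (log2 fold change -2.93, SE 0.18, adjusted p = 0.000213). *ptr-20* fell by 2.66 with the same adjusted p. *grl-15* (chromosome III, 12232632 to 12236014), a groundhog-like gene, had 13.4, 3.08 and 3.75 CPM in TIR1 samples and 132, 344 and 250 CPM in TEV controls (log2 fold change -5.11, SE 0.64, adjusted p = 0.00139), and the warthog genes *wrt-8* and *wrt-2* fell by 4.91 and 3.54. The 4 higher members were *ptr-8* (61, 65.2 and 63.4 CPM in TIR1 samples and 35.8, 26.2 and 31.4 CPM in TEV controls, log2 fold change 1.02, adjusted p = 0.00162), *grd-10* (0.59), *grd-13* (0.53) and *ptr-24* (0.44). The last 3 of these calls were each lost without TIR1 replicate 2, TIR1 replicate 3 or TEV control replicate 3, among others (adjusted p of up to 0.110 for *grd-10*, 0.147 for *grd-13* and 0.0999 for *ptr-24*).

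Astacin proteases, zinc metalloproteases of which several help shed the old cuticle, were lower in 14 of 27 measured members and higher in 0. The share of 51.9% lower stood against 9.76% of all genes, and the median log2 fold change was -0.94. At an unadjusted p under 0.05, 17 were lower and 2 higher, and DESeq2 called 15 lower and 0 higher. *nas-38* (chromosome X, 558157 to 563708) had 1.15, 0.658 and 1.24 CPM in TIR1 samples and 11.4, 12.1 and 9.89 CPM in TEV controls (log2 fold change -3.43, SE 0.23, adjusted p = 0.000284). *nas-36*, which is required for moulting, fell by 2.47 and *nas-14* by 4.39 on the log2 scale. The count of 14 was 14 or 15 in all fits without a library.

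Of 19 regulators and effectors of the moulting cycle, 10 were lower (52.6%, against 9.76% of all genes) and 2 higher (10.5%, against 4.68%). *bed-3* (chromosome IV, 9916524 to 9921967), a zinc finger transcription factor needed for moulting, had 12, 5.92 and 7.51 CPM in TIR1 samples and 59.8, 78 and 57.8 CPM in TEV controls (log2 fold change -2.92, SE 0.26, adjusted p = 0.000489). The nuclear hormone receptor *nhr-41* had 20.1, 10.8 and 15.2 CPM in TIR1 samples and 63.2, 71.1 and 63.3 CPM in TEV controls (-2.09, adjusted p = 0.000723). *grh-1*, the Grainyhead factor of the epidermis, fell by 1.75, the hedgehog-related *qua-1* by 2.51 and *mlt-10*, a gene needed for moulting, by 4.30. The members that were higher were *fbn-1*, which encodes a fibrillin-like protein of the apical matrix (911, 964 and 717 CPM in TIR1 samples and 440, 209 and 398 CPM in TEV controls, log2 fold change 1.31, adjusted p = 0.0138), and *let-653*, another matrix protein (0.70, with the call lost without TIR1 replicate 2, TEV control replicate 2 or TEV control replicate 3, adjusted p of up to 0.121). Of 14 epidermis genes, 6 were lower (42.9%, against 9.76% of all genes) and 0 higher. By DESeq2, as at an unadjusted p under 0.05, 8 were lower and 1 higher. Among the 6 lower genes was *che-14*, a patched-related protein of epithelia (8.96, 8.35 and 7.63 CPM in TIR1 samples and 30.8, 36.2 and 35.5 CPM in TEV controls, log2 fold change -2.03, adjusted p = 0.000213). In entire animals, fewer epidermal cells and less RNA per cell cannot be told apart. Whether the strains were collected at the same point of the moulting cycle was not tested.

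**Figure D3:**
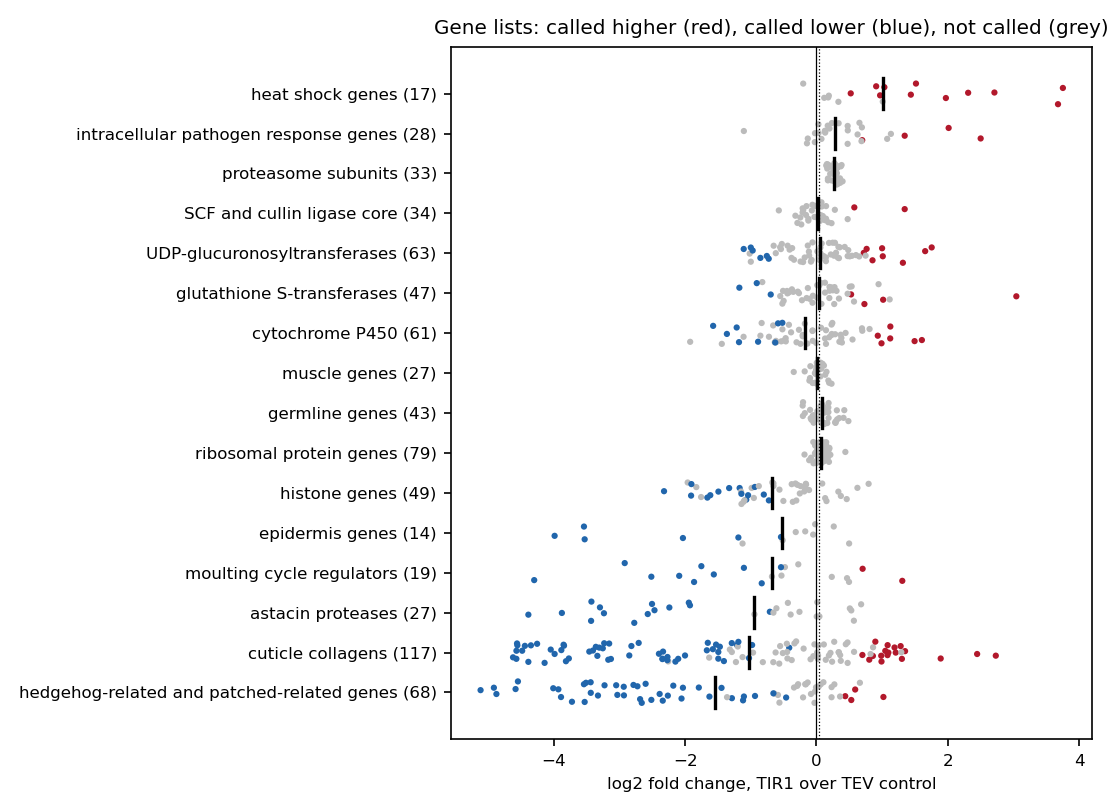
Log2 fold change of TIR1 over TEV control animals for the measured members of 16 gene lists (number in brackets), with genes called higher in red, called lower in blue and others in grey; the black bar is the median of the list and the dotted line the median of all genes tested, 0.04. The median is 1.01 for heat shock genes and -1.54 for hedgehog-related and patched-related genes, and the muscle, germline and ribosomal protein genes hold no called gene.

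Genes that time larval development and genes of cell division were compared because they too change through a larval stage. Of 14 heterochronic genes, 3 were lower (21.4%, against 9.76% of all genes) and 0 higher by edgeR. These counts were the same by DESeq2, and 3 and 1 at an unadjusted p under 0.05. The 3 lower genes were *lin-46*, which acts in the timing of L3 fates (3.53, 3.95 and 2.80 CPM in TIR1 samples and 9.18, 15.4 and 11.2 CPM in TEV controls, log2 fold change -1.79, adjusted p = 0.00137), the Period relative *lin-42* (-1.56) and *lin-29*, a zinc finger factor of the switch to the adult epidermis (-0.88). The call of *lin-42* was lost without TIR1 replicate 2, TEV control replicate 1 or TEV control replicate 2 (adjusted p of up to 0.0857) and that of *lin-29* without TEV control replicate 2 (0.0647). Of 49 measured histone genes, 14 were lower (28.6%, against 9.76% of all genes) and 0 higher by edgeR. These counts were 19 and 0 by DESeq2, and 23 and 0 at an unadjusted p under 0.05. The median log2 fold change was -0.67. *his-18* had 0.349, 0.242 and 0.359 CPM in TIR1 samples and 1.6, 1.88 and 1.42 CPM in TEV controls (log2 fold change -2.32, SE 0.27, adjusted p = 0.00110), and *his-8* fell by 1.91. Histone copies are near-identical, so the division of reads among them is uncertain, and the count was 9 without TIR1 replicate 2, 9 without TIR1 replicate 3 and 6 without TEV control replicate 2. Over all genes, calls lower fell from 1351 to 984, 1128 and 898 in these fits.

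The genes of the pathway that TIR1 joins held few called genes. Of 34 measured core genes of SCF and other cullin ligases, 2 were higher (5.88%, near the 4.68% of all genes) and 0 lower by edgeR. These counts were the same by DESeq2, and 2 and 2 at an unadjusted p under 0.05. The median log2 fold change was 0.03. *cul-6* (chromosome IV, 12586485 to 12590451), a cullin that acts in the response to intracellular pathogens, had 7.26, 9.28 and 10.6 CPM in TIR1 samples and 3.05, 2.94 and 4.58 CPM in TEV controls (log2 fold change 1.34, SE 0.22, adjusted p = 0.00488). *csn-4*, a subunit of the COP9 signalosome, had a log2 fold change of 0.58, and its call was lost without TIR1 replicate 2 (adjusted p = 0.0610). Of 33 proteasome subunits, 0 were called in either direction by edgeR, DESeq2 or limma-voom. All 33 had a log2 fold change above 0 (median 0.27), against 7590 of all 13847 genes. At an unadjusted p under 0.05, 9 were higher, against 1653 of all 13847 genes. *rpn-5* had the smallest p among the subunits, with 215, 215 and 198 CPM in TIR1 samples and 165, 170 and 168 CPM in TEV controls (log2 fold change 0.32, SE 0.11, adjusted p = 0.0940). Of 23 ubiquitin genes, 0 were called by edgeR or limma-voom and 1 by DESeq2 (4 at an unadjusted p under 0.05), and the ubiquitin-activating enzyme *uba-1* had a log2 fold change of 0.41 (adjusted p = 0.108).

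F-box and MATH-BTB genes, the worm's own large families of substrate receptors, were higher in 11 of 189 measured members (5.82%, near the 4.68% of all genes) and lower in 2 (1.06%, against 9.76% of all genes), with a median log2 fold change of 0.09. *fbxa-182* had 7.83, 7.83 and 8.27 CPM in TIR1 samples and 2.63, 1.40 and 1.81 CPM in TEV controls (log2 fold change 2.01, SE 0.22, adjusted p = 0.000915), and *fbxa-35* rose by 2.81. The count of higher members was 7 without TIR1 replicate 3, also 7 with genes of at least 50 reads, and 18 with the replicate number as a block. Over all genes, 395, 589 and 1153 were higher in these fits, instead of 648. The 2 lower members, *fbxa-143* (-1.36) and *bath-44* (-0.40), were each lost without TIR1 replicate 2, among others (adjusted p of up to 0.0945 and 0.134).

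Families of detoxification enzymes held called genes in both directions. Glutathione S-transferases, UDP-glucuronosyltransferases and cytochrome P450 genes each had a share of higher genes above the 4.68% of all genes. Their shares of lower genes lay on both sides of the 9.76% of all genes. Of 47 glutathione S-transferases, 4 were higher (8.51%) and 3 lower (6.38%). Beside *gst-24*, these were *gst-15* (log2 fold change 1.02), *gst-1* (0.73) and *gst-28* (0.53) among the higher and *gst-13* (22.8, 31.9 and 31 CPM in TIR1 samples and 66.4, 67.2 and 59.1 CPM in TEV controls, -1.17, adjusted p = 0.00150), *gsto-3* (-0.91) and *gst-14* (-0.70) among the lower. The calls of *gst-15*, *gst-1*, *gst-28* and *gst-14* were lost without single libraries (highest adjusted p 0.0803, 0.148, 0.170 and 0.0763), and only *gst-24* was called higher without TIR1 replicate 2, TIR1 replicate 3 or TEV control replicate 3. Of 63 UDP-glucuronosyltransferases, which attach sugars to lipophilic compounds, 8 were higher (12.7%) and 6 lower (9.52%). *ugt-21* had 33.5, 39.1 and 34.9 CPM in TIR1 samples and 17.1, 17.4 and 18.8 CPM in TEV controls (log2 fold change 1.01, SE 0.11, adjusted p = 0.000946), and *ugt-32* rose by 1.66, while *ugt-6* fell by 1.11. The count of 8 was 5 without TIR1 replicate 2 and 3 without TEV control replicate 2. Over all genes, 313 and 317 were higher in these fits, instead of 648. Of 61 cytochrome P450 genes, 6 were higher (9.84%) and 8 lower (13.1%), with a median of -0.18. *cyp-13A12* had 9.01, 10.5 and 13.5 CPM in TIR1 samples and 3.79, 4.08 and 3.80 CPM in TEV controls (log2 fold change 1.49, SE 0.18, adjusted p = 0.00110), *cyp-14A5* rose by 1.13 and *cyp-42A1* fell by 1.36. Among 9 genes of the aryl hydrocarbon receptor pathway, listed because its ligands include indoles and the natural auxin is an indole, 0 were higher and 1 was lower by edgeR and by DESeq2 (0 and 5 at an unadjusted p under 0.05), *cyp-35C1* (-0.63, with the call lost without any library other than TIR1 replicate 1, adjusted p of up to 0.0995).

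Immune genes were called in both directions, as were all genes (4.68% higher and 9.76% lower). Of 73 antimicrobial and lysozyme genes, 8 were higher (11%) and 13 lower (17.8%). The saposin-like *spp-13* had 6.97, 2.01 and 2.48 CPM in TIR1 samples and 41, 85.2 and 60 CPM in TEV controls (log2 fold change -3.94, SE 0.49, adjusted p = 0.00132), and *nlp-33*, an antimicrobial peptide of the epidermis, fell by 1.89. The peptide genes *fipr-9* and *fipr-5*, neighbours on chromosome V, rose by 1.89 and 1.69. Of 113 C-type lectins, 12 were higher (10.6%) and 13 lower (11.5%, near the share of all genes). Without TEV control replicate 2, 7 were higher and 5 lower, and of all genes 317 and 898 instead of 648 and 1351. The lower lectins were 8 without TIR1 replicate 2 (984 of all genes) or TEV control replicate 3 (1233), and 7 without TEV control replicate 1 (1064). *clec-238* had 0.281, 0.104 and 0 CPM in TIR1 samples and 2.96, 4.21 and 3.83 CPM in TEV controls. Of 28 genes of the intracellular pathogen response, 4 were higher (14.3%, against 4.68% of all genes) and 0 lower by edgeR. These counts were the same by DESeq2, which called 770 higher and 1571 lower of all 13847 genes. At an unadjusted p under 0.05 they were 6 and 0, against 1653 and 2094 of all genes. The 4 higher genes were *pals-1* (3.60, 4.78 and 4.08 CPM in TIR1 samples and 0.769, 0.570 and 0.814 CPM in TEV controls, log2 fold change 2.5, adjusted p = 0.000489), *fbxa-182*, *cul-6* and the RIG-I-like receptor *drh-1* (0.70, adjusted p = 0.00816).

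Most other groups held few called genes, beside 4.68% higher and 9.76% lower among all genes. By edgeR, 0 genes were called among 43 germline genes (median 0.08), 27 muscle genes (0.01), 79 ribosomal protein genes (0.08), 10 dosage compensation complex genes (0.14), 17 cohesin and condensin genes (0.08) and 2 vitellogenins. At an unadjusted p under 0.05, these were 4 germline genes, 1 muscle gene, 1 ribosomal protein gene, 0 genes of either group of chromosome proteins and 1 vitellogenin. DESeq2 called 1 germline gene and 0 of the others, and limma-voom called 0. *sdc-3*, the gene that carries the degron in other strains of the series, had 44.6, 36.5 and 39.4 CPM in TIR1 samples and 32.1, 22.3 and 37.3 CPM in TEV controls, and the groups overlapped (adjusted p = 0.221). Of 31 neuronal genes, 1 was higher, the syntaxin-binding *unc-18* (196, 190 and 180 CPM in TIR1 samples and 95.8, 77 and 86.6 CPM in TEV controls, log2 fold change 1.13, adjusted p = 0.000905), and 1 was lower, the cilium gene *osm-5* (-0.56, lost without single libraries with an adjusted p of up to 0.0941). Of 20 intestinal genes, 1 was lower, the cathepsin B-like protease *cpr-6* (290, 228 and 220 CPM in TIR1 samples and 693, 895 and 664 CPM in TEV controls, log2 fold change -1.61, adjusted p = 0.000905), and 1 higher, *cpr-4* (0.64, adjusted p of up to 0.0839 without a library). Of 120 measured chemoreceptor genes, 3 were higher (*srw-85*, *srd-53* at 1.30 and *srdh-1* at 1.00) and 2 lower (*srr-1* at -1.64 and *sru-27* at -2.38), and the calls of *srdh-1* and *sru-27* were lost without TEV control replicate 2 (adjusted p = 0.0597 and 0.0592). Of 203 nuclear hormone receptors, 10 were higher (4.93%, near the 4.68% of all genes) and 7 lower (3.45%, against 9.76%), with *nhr-265* at 2.51. In the insulin and dauer pathway, 3 of 26 genes were lower (11.5%, near the 9.76% of all genes) and 0 higher. These counts were 6 and 1 at an unadjusted p under 0.05, and 4 and 0 by DESeq2. Among the 3 lower genes was the superoxide dismutase *sod-3* (3.69, 3.67 and 3.67 CPM in TIR1 samples and 6.66, 6.53 and 7.96 CPM in TEV controls, log2 fold change -0.94, adjusted p = 0.00376). The others were *dod-24* (-1.12) and the kinase gene *akt-1* (-0.67), both lost without single libraries (adjusted p of up to 0.0934 and 0.0773).

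The called genes lay on every chromosome. Upregulated genes were 3.26% of the genes tested on chromosome I, 5.03% on II, 3.95% on III, 4.50% on IV, 6.83% on V and 3.76% on X. Downregulated genes were 7.55% on I, 10.5% on II, 6.69% on III, 10.3% on IV, 10.8% on V and 12.5% on X. Of chromosomes II and III, which hold the insertions, II lay within the range of the other nuclear chromosomes in both directions, while III had the lowest share of downregulated genes. The median log2 fold change on X was -0.01, and that on each autosome between 0.04 and 0.05. Of the 12 genes tested on the mitochondrial chromosome, 0 were called by edgeR, DESeq2 or limma-voom, and 0 had an unadjusted p under 0.05.

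The named genes were then followed in other strains of the series, as levels in 22 libraries scaled together. PMW822 carries the insertions of PMW823 and a degron on SDC-3, a protein of the dosage compensation complex, and was grown with and without auxin in batch 4. PMW821 has in addition a TEV cleavage site in DPY-26 and was grown with auxin in batch 3. PMW366 without auxin was sequenced in batches 1 and 2. The genes described next followed 4 patterns.

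In the first pattern, genes were high in every library with TIR1 and low in every library without it, whatever the auxin. *unc-119* lay between 13.3 and 14.5 CPM in PMW823, 14 and 15.4 in PMW821, 14.3 and 15.4 in PMW822 with auxin, 11.5 and 16.8 in PMW822 without auxin, and between 2.47 and 3.44 CPM in all 10 libraries of PMW366. *srw-85*, *scl-3*, *vsra-1* and *F49B2.6* behaved alike: *srw-85* was 14.1 CPM or more in the 12 libraries with TIR1 and 1.66 CPM or less in the 10 without.

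In the second pattern, genes were high only in libraries with both TIR1 and auxin. *pgp-8* lay between 17.1 and 23.3 CPM in PMW823, 38.1 and 49.7 in PMW821 and 20.8 and 35 in PMW822 with auxin, against 1.01 to 1.85 CPM in PMW822 without auxin, 0.787 to 1.54 in PMW366 with auxin and 0.851 to 1.56 in PMW366 without auxin. *numr-1* was between 17.9 and 68 CPM in libraries with both, and between 2.19 and 10.4 CPM in all others. *gst-24*, *amt-1* and *W01F3.2* showed the same order. *gst-24* in PMW822 without auxin (13.1 to 38.9 CPM) reached above PMW366 with auxin (13.8 to 19.4 CPM) in at least 1 library.

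In the third pattern, that of *hsp-16.2* and of the summed heat shock genes, levels without TIR1 varied by batch and in batch 1 reached those of PMW823. *hsp-16.2* lay between 308 and 667 CPM in PMW823, 162 and 239 in PMW821, 500 and 598 in PMW822 with auxin, 125 and 508 in PMW822 without auxin, 30 and 53.2 in PMW366 with auxin, 251 and 757 in PMW366 of batch 1, and 14.6 and 74.9 in PMW366 of batch 2. The summed level of heat shock genes was 15220 to 33400 CPM in PMW366 of batch 1, which overlapped the 16820 to 20850 CPM of PMW823, and 7416 to 8316 CPM in PMW366 of batch 2. Not every member followed this order. *hsp-90* lay between 3380 and 4890 CPM in PMW366 of batch 1, below the 5960 to 7320 CPM of PMW823. *hsp-43* was lowest in PMW366 of batch 1, at 17.5 to 27.8 CPM, against 87.5 to 99.3 CPM in PMW823. Strain and batch cannot be told apart for these genes outside batch 3.

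In the fourth pattern, genes were low with TIR1 and auxin together and high without TIR1. Of 21 downregulated genes of the cuticle, moult and epidermis named above, 17 were lower in all 9 libraries with both than in any PMW366 library. The exceptions were *dpy-7*, *wrt-2*, *grh-1* and *nas-38*. The 21 genes were picked as lower in PMW823 than in PMW366 with auxin, so the order of those libraries was fixed by the choice. Only the remaining libraries add to it, and the same share over all genes was not counted. In PMW822 without auxin, 14 of the 21 were above all 9 libraries with both, and *ptr-6*, *ptr-20*, *wrt-8*, *nas-38*, *nas-36*, *bed-3* and *che-14* were not. The share of all genes with this order was not counted either, so whether it is particular to these genes was not tested. *dpy-4* lay between 31.2 and 257 CPM in the 9 libraries with both, between 879 and 1930 CPM in PMW822 without auxin and at 1240 CPM or more in PMW366. The summed level of the hedgehog-related and patched-related genes was 1834 to 2457 CPM in PMW823, 2005 to 2601 in PMW821, 1836 to 3064 in PMW822 with auxin, 4226 to 6123 in PMW822 without auxin, 4644 to 5797 in PMW366 with auxin, 7311 to 8388 in PMW366 of batch 1 and 5167 to 6367 in PMW366 of batch 2. *nas-38* had 12.9 to 18.7 CPM in PMW821. The sums of 2 other lists overlapped between strains. Cuticle collagens summed to 34440 to 45240 CPM in PMW823, 28650 to 50150 in PMW822 without auxin and 36040 to 48760 in PMW366 with auxin. Moulting cycle regulators summed to 4090 to 7022 CPM in PMW823, 10350 to 12240 in PMW822 without auxin, 7246 to 9592 in PMW366 with auxin, 4699 to 8266 in PMW366 of batch 1 and 3574 to 8053 in PMW366 of batch 2.

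**Figure D4:**
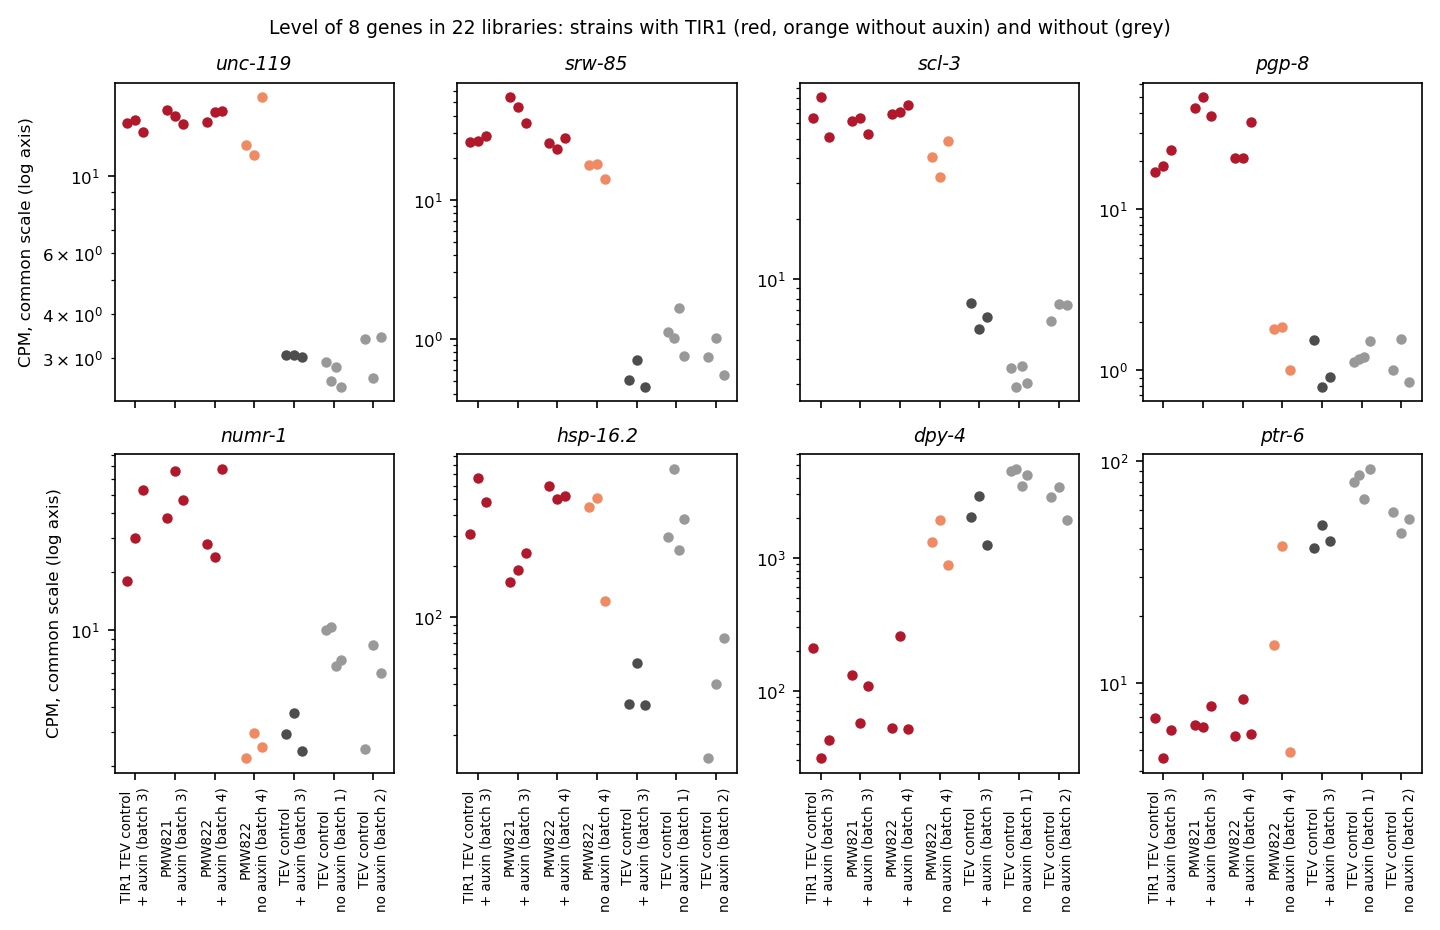
CPM on a scale common to 22 libraries (logarithmic axis) of 8 genes in strains with TIR1 (red with auxin, orange without) and without TIR1 (grey); each point is 1 library. *unc-119* is high in every library with TIR1, *pgp-8* and *numr-1* only in those with TIR1 and auxin, *hsp-16.2* is as high in PMW366 of batch 1 (251 to 757 CPM) as in PMW823, and *dpy-4* is lowest in libraries with both.

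The directions of change were counted in comparisons that share no sample with batch 3. In PMW822 over PMW366, both without auxin, 472 of 629 genes called higher in PMW823 and measured there were also higher (75%, against 48.8% of all genes), and 100 passed the test (15.9%, against 3.72% of all genes). Of 1349 genes called lower, 1008 were also lower (74.7%, against 51.2%), and 369 passed the test (27.4%, against 5.45%). Strain and batch cannot be told apart in this comparison. In PMW822 with over without auxin, a comparison added after values were seen, 539 of 638 genes called higher were higher (84.5%, against 50.4%) and 55 passed the test (8.62%, against 0.821%), and 1201 of 1282 genes called lower were lower (93.7%, against 49.6%) and 39 passed the test (3.04%, against 0.451%). Auxin and the depletion of SDC-3 cannot be told apart here. PMW822 replicate 3 without auxin stood apart, with 26.1 CPM of *hsp-16.48*, against 456 and 453 CPM in replicates 1 and 2. Without it, 207 of the genes called higher (32.5%, against 4.65% of all genes) and 383 of the genes called lower (30.4%, against 4.51%) passed the test in the auxin comparison. In the comparison without auxin these were 32 (5.11%, against 0.616%) and 22 (1.63%, against 0.323%). In the auxin comparison, 0 of all genes passed without replicate 1 or 2 grown without auxin, or without replicate 1 grown with it. Without replicate 3 with auxin, 1 gene passed, and it was among those called higher. Without replicate 2 with auxin, 63 (10%, against 1.07%) and 374 (29.3%, against 3.14%) passed. In the comparison without auxin, 21 (3.36%, against 0.308%) and 12 (0.89%, against 0.139%) passed without replicate 1. Without replicate 2 these were 105 (16.7%, against 4.2%) and 533 (39.5%, against 7.31%). PMW822 with over without auxin gave *pgp-8* a log2 fold change of 4.03 (adjusted p = 0.0141) and *numr-1* one of 3.96 (0.0177), while *unc-119* was at 0.14 (0.661) and *srw-85* at 0.61 (0.0761). Neither *pgp-8* nor *numr-1* passed in the fits of this comparison in which 0 genes passed. In PMW822 over PMW366 without auxin, *unc-119* rose by 2.22 (adjusted p = 8.65e-05) and *srw-85* by 4.06 (4.65e-05), while *pgp-8* was at 0.35 (0.374).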

How the data were processed

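The authors deposited an estimated count of reads per transcript for each count file, not scaled for depth, and the submitters' processing notes name cutadapt 2.5, Salmon 1.5.2 and STAR 2.7.9a. The transcriptome release and the use of strand in counting are not given in the sources used here. The library kit kept strand, and 16 of the 109 genes named overlap a gene on the opposite strand, among them *hsp-90*, *hsp-70*, *dpy-4*, *grl-15*, *bed-3*, *fbn-1* and *sod-3*, and *mlt-10* and *srd-53* overlap a gene on the same strand, so their values could hold reads of the partner. The deposited TPM values were not used.

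The files of each sample were added up, with transcripts joined to genes of the Ensembl release 115 annotation of WBcel235, 30905 of 42938 by name and 11992 by the sequence name of the gene. A further 41 had no gene and took 0.00763% to 0.00989% of the reads. Sums were rounded to whole reads. Genes with at least 10 reads in 3 of 6 samples were tested with edgeR 4.0.16 (TMM, quasi-likelihood test, Benjamini-Hochberg adjustment, threshold 0.05) in R 4.3.3. DESeq2 (here version 1.42.0; the study's methods name the same tool in another version) and limma 3.58.1 were alternatives, beside other filters, RLE scaling, a replicate block, all 9 samples of batch 3, either pair of files of TIR1 replicate 1, and each replicate left out. Tables and figures were made with pandas 2.3.3, numpy 2.4.6 and matplotlib 3.10.9 under Python 3.11.15. Genes that oscillate during development, which the study's methods removed, were kept. For a gene with no reads the floor was 3 reads of the library, which covers counting error only.

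Members and gene lists (40, from general knowledge) were chosen with earlier results of these data known. Genes were named by a rule: transgene parts, the 15 called genes with the highest and the 15 with the lowest fold change with a mean of at least 1 CPM and no overlap, the 6 most abundant called genes per direction, and the 2 smallest p-values per direction in each list. A further 26 genes were chosen after their values were seen, mostly to complete a group. On simulated counts for this comparison, with 200 of 13847 genes changed, edgeR recovered 54% of genes changed by 1 and 99% of those changed by 2 on the log2 scale, with 6 false calls. Same-numbered samples of both strains did not deviate together in every pair, so the replicate numbers were not taken as pairs.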

Additional observations from a re-analysis of the deposited data

How the results depend on the processing

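All 101 called genes among the 109 named kept their sign in every alternative, 95 stayed called in all alternatives that left out no library, and 76 in all 6 fits that left out a library. Leaving out a library gave 313 to 680 genes higher and 898 to 1428 lower, and 313 to 628 and 887 to 1385 beyond 0.5 on the log2 scale. *unc-54*, which was not called, ranged from -0.14 to 0.21 on the log2 scale in these fits (-0.14 without TIR1 replicate 1, -0.01 without TEV control replicate 2 and -0.01 without TEV control replicate 3), and *F44E5.5*, also not called, from -0.74 without TIR1 replicate 1 to 2.72. For genes called higher and lower, the share that moved the same way ranged from 68.7% to 75.8% and from 69.3% to 78.1% in PMW822 over PMW366 without auxin, and from 78.2% to 89.6% and from 84.1% to 95% in PMW822 with over without auxin, over fits without a PMW822 library.

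With the replicate block, 1153 genes were higher and 1721 lower. The deviations of same-numbered samples correlated with Pearson's r of 0.378, 0.047 and 0.255 across genes, replicate 2 did not correlate best with its own number, and the samples share only a number. The block added calls for *F44E5.5* (adjusted p = 0.0137), *rpn-5* (0.0406) and *uba-1* (0.0241). The cause of these shifts was not tested. DESeq2 gave 770 higher and 1571 lower, and the other alternatives between 589 and 858 and between 1197 and 1617. Intracellular pathogen response genes were higher in 7 members with no filter on low counts, and C-type lectins lower in 7 with at least 50 reads. Over all genes, 662 were higher in the first of these fits and 1197 lower in the second. TIR1 replicate 3, with 23626527 reads, and TEV control replicate 2, with 24320598, were the shallowest libraries, and a count of 0 there allows up to the level of 3 reads.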
